A study of Arabidopsis thaliana with 28 samples.

Results

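Shoots of Arabidopsis thaliana sampled soon after a UV-B exposure were compared with shoots sampled on the next morning. The early pool held the 4 shoot arrays labelled 0.5 h and 1 h, and the next-morning group held the 2 shoot arrays labelled 24 h, which together make 6 of the 28 arrays of the series. All plants were of the accession Col-0, grew on Murashige and Skoog medium in 16 h days, and received UV-B of 1.18 W/m2 for 15 min on day 16, 3 h into the light. The 24 h plants had therefore received the same exposure and were 1 day older when sampled, at nearly the same hour of the day as the early plants. No array of unexposed plants was analysed here, so time since the exposure, plant age and the small shift in clock hour cannot be told apart. From which moment of the exposure the labelled times run is not stated, and neither is whether the 2 replicates of a time came from separate cultures. All p-values therefore measure only the spread between these samples. In whole shoots, fewer cells of a type and less RNA per cell also cannot be told apart.

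UV-B is the short-wave part of sunlight that reaches plants. It is perceived by a dedicated photoreceptor whose signalling, together with bZIP factors of the HY5 kind, turns on genes for light-absorbing flavonoids and sinapate esters. Higher doses also call up general stress responses within minutes, among them zinc-finger and WRKY factors, calcium sensors and cell-wall enzymes, and later ones that include detoxification and defence genes. Many of these genes also follow the time of day, which is why a reference at nearly the same hour is of use.

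Each array gave a MAS5 signal, a brightness summary on a linear scale, for 22746 probe sets after 64 control probe sets were left out. Of these, 14806 were tested, each brighter than the array median on 2 or more of the 28 arrays. The median signal of these 6 arrays lay between 36.7 and 38.1, every array had been scaled to a trimmed mean of 100.01, and Pearson's r between the 2 replicates across probe sets was 0.985 at 0.5 h, 0.986 at 1 h and 0.989 at 24 h. The tissue label was checked with marker genes. The summed signal of 8 nuclear photosynthesis genes lay between 29934 and 40149.7 on the early arrays and between 28623 and 32279 at 24 h, against 414 to 836 on the 14 root arrays. The summed signal of 3 root marker genes lay between 18.8 and 39.7 on the early arrays and between 26.6 and 28.9 at 24 h, against 299.8 to 715 in roots. None of the 8 photosynthesis genes and none of the 3 root markers was called by limma in the early pool against 24 h, where 37.5% of all tested probe sets were. At an unadjusted p under 0.05 the counts were 0 of 8 and 0 of 3.

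A difference is the log2 of the signal plus 9.58, averaged over the 0.5 h and 1 h groups, minus the same at 24 h. The constant shrinks differences of dim genes, so a log2 difference understates the change of a gene whose signals are near this constant. Called means an adjusted p under 0.05. In the early pool 2336 probe sets were higher than at 24 h, which is 15.8% of those tested, and 3211 were lower, which is 21.7%. A difference of at least 2-fold was seen in 482 of the higher and 235 of the lower, or 3.26% and 1.59%. The median difference over all tested probe sets was -0.04.

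Both early times agreed where a probe set was called in the pool and at 0.5 h and 1 h separately with 1 sign, and where none of the 4 early arrays overlapped the 24 h arrays. This was so for 1203 probe sets that were higher early, 8.13% of those tested, and for 1629 that were lower, 11% of those tested. At least 2-fold differences were seen in 442 of the first and 213 of the second, or 2.99% and 1.44% of those tested. The 0.5 h and 1 h comparisons share the 24 h arrays, so their agreement is a rule for naming genes and not a second test. On their own, 28.2% of probe sets were called at 0.5 h and 39.8% at 1 h. The remaining 2715 of the pooled calls did not meet the rule at both times.

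**Figure D1:**
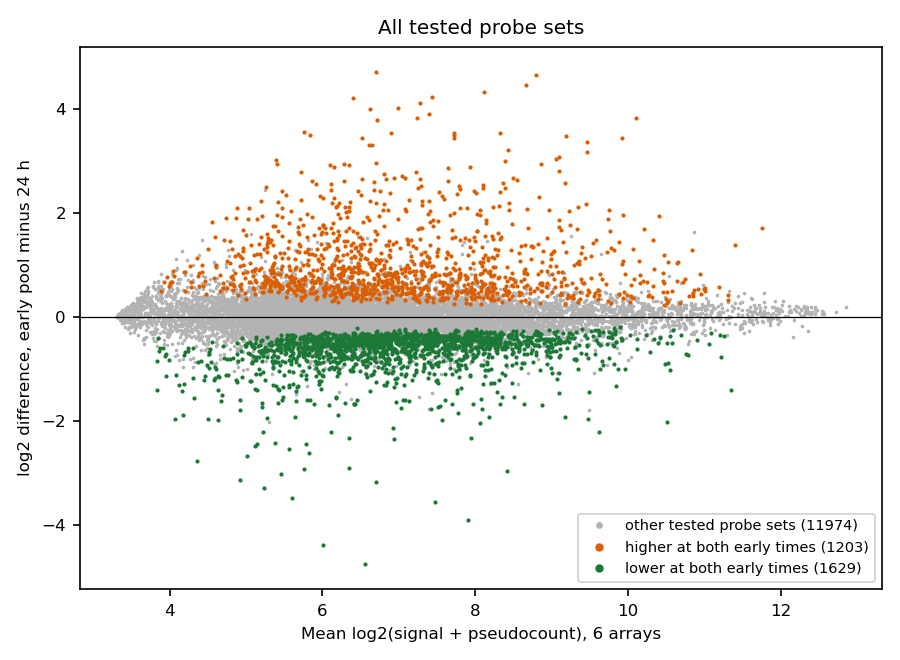
Each point is 1 of the 14806 tested probe sets, with the mean log2(signal + pseudocount) of the 6 arrays on the x axis and the log2 difference, early pool minus 24 h, on the y axis. The 1203 orange points are higher at both early times and the 1629 green points lower, and 442 orange points against 213 green ones lie at least 1 log2 unit from 0.

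The largest early excess among probe sets that match 1 gene was that of STZ (AT1G27730), a zinc-finger repressor known to be induced by many stresses. STZ signals were 1024 and 939 at 0.5 h, 1651 and 1794 at 1 h, and 41.7 and 43.2 at 24 h. All 4 early arrays stood far above both 24 h arrays, and the early mean was 31.9 times the 24 h mean. The log2 difference was 4.65 ± 0.12 (SE; adjusted p = 1.47e-17). CML38 (AT1G76650), a calmodulin-like protein of the calcium-sensor family, had signals of 282 and 210.0 at 0.5 h, 398 and 395 at 1 h, and 11.5 and 9.11 at 24 h. Its groups were as clearly apart, with a difference of 4.01 ± 0.13 (SE; adjusted p = 4.18e-16). XTH18 (AT4G30280), an enzyme that cuts and rejoins xyloglucan in the cell wall, gave signals of 241 and 198 at 0.5 h, 288 and 233 at 1 h, and 2.59 and 9.92 at 24 h, and its difference was 4.01 ± 0.21 (SE; adjusted p = 1.82e-11). Both 24 h signals of XTH18 were dim, and the difference was 2.55 with a pseudocount at the median signal. Its close relative XTH19 gave 171 and 119.6 at 0.5 h, 162 and 71.2 at 1 h, and 9.11 and 7.07 at 24 h, again with no overlap, and differed by 2.93 ± 0.24 (SE; adjusted p = 1.63e-08). The 2 genes are near copies, and how far their probe sets detect each other was not tested.

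Of the 12 largest rises 9 fell on loci that the annotation used here gives no role. AT1G19020 had signals of 1083 and 915 at 0.5 h, 1298 and 1246 at 1 h, and 39.3 and 44.7 at 24 h and differed by 4.46 ± 0.10 (SE; adjusted p = 3.76e-18). AT4G27280, from the list of touch and calcium genes, had signals of 1505 and 1911 at 0.5 h, 3438 and 4983 at 1 h, and 174 and 181 at 24 h. Its early arrays reached far above the 24 h arrays, and the 1 h arrays stood above those of 0.5 h. The difference was 3.83 ± 0.15 (SE; adjusted p = 3.13e-14). AT4G37290 was near 0 at 24 h, with 70.4 and 39.2 at 0.5 h, 253 and 254 at 1 h, and 1.65 and 1.86 at 24 h, so its fitted difference of 3.50 ± 0.21 depends on the constant added and ran from 1.95 with a pseudocount at the median signal to 6.04 with none. The others were AT1G05575 (3.83), AT1G32920 (3.48), AR781 (3.44), AT2G32030 (3.31), AT3G57450 (3.17) and AT3G56880 (3.07), each as a log2 difference. For all 12 genes the 4 early arrays were above both 24 h arrays, which the rule for naming them requires. The pooled call held in each alternative setting tried, and the direction held with any 1 of the 6 arrays left out.

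**Figure D2:**
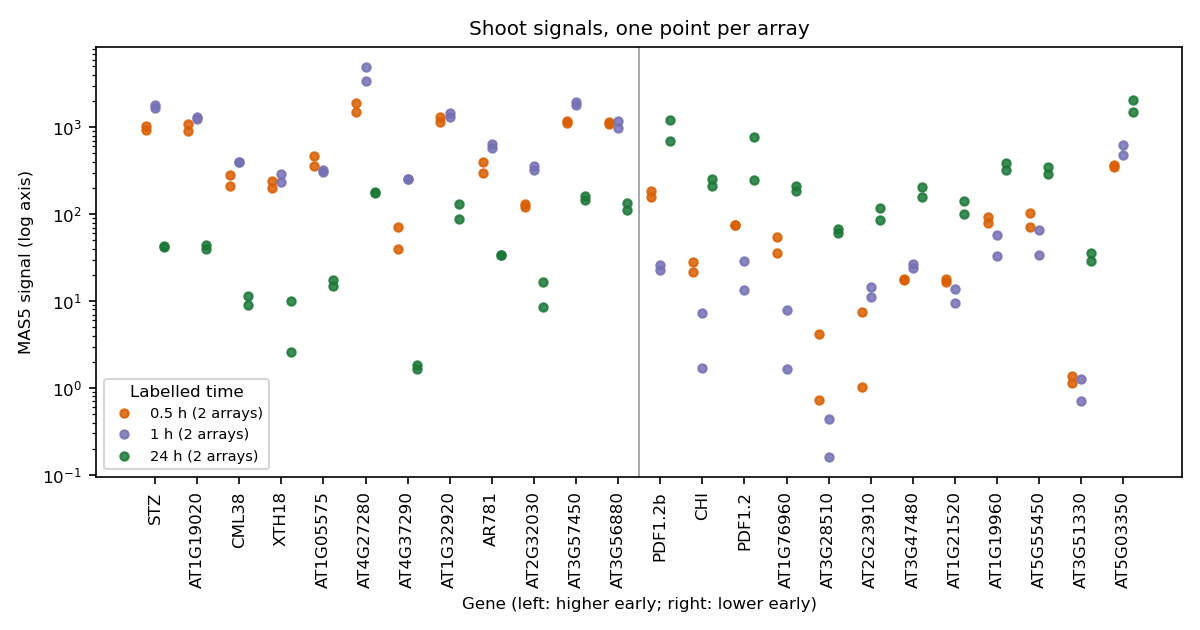
MAS5 signals on a log axis for the 12 genes with the largest rise (left) and the 12 with the largest fall (right), 1 point per shoot array at 0.5 h, 1 h and 24 h. In every gene the 4 early points lie on 1 side of both 24 h points, as the rule for naming them requires. STZ ran from 939 to 1794 early, against 41.7 and 43.2 at 24 h.

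Further genes with large rises and a description in the annotation are given next, picked after their values were seen. WRKY53, a factor known for its part in leaf senescence, had signals of 322 and 230.0 at 0.5 h, 145 and 139 at 1 h, and 24.4 and 10.9 at 24 h. The 0.5 h arrays were the highest, and no early array came near those of 24 h. The difference was 2.97 ± 0.17 (SE; adjusted p = 1.94e-11). ATPMEPCRB, a pectin methylesterase, had signals of 176 and 166 at 0.5 h, 54.5 and 58 at 1 h, and 6.26 and 12 at 24 h and differed by 2.56 ± 0.16 (SE; adjusted p = 2.00e-11). With a pseudocount at the median signal ATPMEPCRB differed by 1.51. UPB1, a bHLH factor that in roots controls peroxidase genes, differed by 2.22 ± 0.17 (SE; adjusted p = 1.87e-09). The UPB1 difference depends on the constant added and ran from 1.11 with a pseudocount at the median signal to 4.11 with none. AT5G64120, a class III peroxidase, differed by 2.15 ± 0.16 (SE; adjusted p = 1.11e-09). PTI1-4, a protein kinase of the Pto-interacting kind, differed by 2.1 ± 0.16 (SE; adjusted p = 2.67e-09). TET8, a tetraspanin found on extracellular vesicles, differed by 2.05 ± 0.07 (SE; adjusted p = 2.81e-15), with early signals of 1386 ± 106 (SD, n = 4) against 326 ± 8.48 (SD, n = 2). DLAH, a lipid acylhydrolase, differed by 1.97 ± 0.13 (SE; adjusted p = 8.30e-11), or by 1.06 with a pseudocount at the median signal.

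Of the 12 largest falls 3 were defence genes in the annotation. PDF1.2b, a defensin known to answer to jasmonate and ethylene, had signals of 186 and 157 at 0.5 h, 25.9 and 23 at 1 h, and 1223 and 685 at 24 h. The 24 h arrays were the highest, the 0.5 h arrays lay between, and the 1 h arrays were the lowest. The difference was -3.56 ± 0.28 (SE; adjusted p = 1.85e-08). PDF1.2, nearly identical in sequence, gave 74.5 and 74 at 0.5 h, 28.8 and 13.3 at 1 h, and 769 and 249.7 at 24 h and differed by -3.17 ± 0.46 (SE; adjusted p = 4.29e-05). The probe set of PDF1.2b is of a design that can detect related transcripts, so the pair may not be independent. The 0.5 h call of PDF1.2 was lost without the first 24 h array, with an adjusted p of 0.0515. CHI (AT2G43570), annotated as a putative chitinase, gave 28.3 and 21.4 at 0.5 h, 1.68 and 7.3 at 1 h, and 254 and 213 at 24 h, with all early arrays far below both 24 h arrays, and differed by -3.48 ± 0.60 (SE; adjusted p = 3.26e-04).

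The other 9 falls were at loci without a role in the annotation used here. AT5G03350 had signals of 352 and 372 at 0.5 h, 479.5 and 617 at 1 h, and 2048 and 1484 at 24 h, and differed by -1.95 ± 0.36 (SE; adjusted p = 4.88e-04). Its call was lost with no pseudocount, where the adjusted p was 0.0603. AT1G19960 gave 92.8 and 78.4 at 0.5 h, 57.1 and 32.8 at 1 h, and 385 and 323 at 24 h and differed by -2.35 ± 0.23 (SE; adjusted p = 2.82e-07). AT3G28510 and AT3G51330 were close to 0 on all 4 early arrays and dim at 24 h, with 24 h means of 64.5 and 32.2. Their differences of -2.77 and -1.96 went to -6.57 and -4.89 with no pseudocount, and their direction held. The rest were AT1G76960 (-2.92), AT2G23910 (-2.68), AT3G47480 (-2.62), AT1G21520 (-2.42) and AT5G55450 (-2.13). The 0.5 h call of AT1G76960 was lost without the second 0.5 h array, with an adjusted p of 0.0789, and without the first 24 h array, with 0.065.

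The annotated genes that fell and are given here were again picked after their values were seen. EXPA8, an expansin that loosens the cell wall, had signals of 166 and 175 at 0.5 h, 202 and 165 at 1 h, and 735 and 653 at 24 h, and all early arrays were well below those of 24 h. It differed by -1.92 ± 0.18 (SE; adjusted p = 3.57e-08). PMEPCRF, another pectin methylesterase, gave 305 and 304 at 0.5 h, 212 and 181 at 1 h, and 715 and 749.5 at 24 h and differed by -1.55 ± 0.11 (SE; adjusted p = 1.46e-10), opposite in sign to ATPMEPCRB. SWEET1, a sugar transporter, differed by -1.20 ± 0.14 (SE; adjusted p = 5.32e-07). CML41, a calmodulin-like protein, differed by -1.61 ± 0.15 (SE; adjusted p = 3.80e-08), opposite to CML38. AT5G61590, known as DEWAX, an ERF factor that represses wax genes, differed by -1.22 ± 0.13 (SE; adjusted p = 2.19e-07). AT1G68570, a transporter of the NPF family, differed by -1.14 ± 0.16 (SE; adjusted p = 1.01e-05). PCME, an isoprenylcysteine methylesterase, differed by -1.60 ± 0.14 (SE; adjusted p = 5.51e-09), and P1R1 by -1.60 ± 0.19 (SE; adjusted p = 8.72e-07).

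Gene lists for pathways that UV-B is known to touch were small on this annotation, since 8730 of 22746 probe sets had no gene and 503 had several. Over the 7838 tested genes that had 1 name, 35.8% were called. All list counts below stand against 15.8% higher and 21.7% lower over all tested probe sets. In light signalling, 2 of 19 listed genes were measured. HYH, the bZIP homolog of HY5, had signals of 461 and 466 at 0.5 h, 543 and 512 at 1 h, and 188 and 226 at 24 h, so every early array was above the 24 h arrays by more than their spread, and it differed by 1.23 ± 0.11 (SE; adjusted p = 2.42e-08). AT1G16260, the other list member, has no role in the annotation used here, so whether it acts in light signalling could not be checked. Its difference was -0.35 ± 0.11 (SE; adjusted p = 0.0121), or -0.27 without the first 24 h array, where the call was lost.

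Several genes for sinapate esters and flavonoids were higher early. Of 4 measured sinapate and phenylpropanoid genes 3 were higher and none lower (1 lower, REF1, at an unadjusted p under 0.05), with a median of 1.1. The 3 were UGT84A1, UGT84A3 and UGT84A4, and how far their probe sets detect each other was not tested. Only 1 of the 4 genes met the rule for both early times, and at 0.5 h alone 2 were higher and 1 lower. Of 6 flavonoid genes 3 were higher and 1 lower, with a median of 0.49. At 0.5 h alone 3 of the 6 were higher and 2 lower. UGT78D2, a flavonoid glucosyltransferase, had signals of 580.0 and 701 at 0.5 h, 1317 and 1541 at 1 h, and 211 and 243 at 24 h. The 1 h arrays were highest, the 0.5 h arrays lay between, and the 24 h arrays were lowest. It differed by 2.03 ± 0.10 (SE; adjusted p = 1.19e-12). UGT84A3, which glucosylates hydroxycinnamates, gave 66.9 and 74.4 at 0.5 h, 104 and 111 at 1 h, and 16.6 and 20.9 at 24 h, with no overlap, and differed by 1.78 ± 0.12 (SE; adjusted p = 1.13e-10). UGT84A1, of the same activity, gave 3.87 and 33.3 at 0.5 h, 208 and 149.9 at 1 h, and 0.777 and 5.03 at 24 h. The first 0.5 h array was as low as those of 24 h, so both early times did not agree for it. Its difference was 0.97 ± 0.35 at 0.5 h and 3.92 ± 0.35 at 1 h, and the 0.5 h call was lost without the second 0.5 h array (adjusted p = 0.763).

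DFR, a reductase on the way to anthocyanins, had signals of 30.1 and 105 at 0.5 h, 53.6 and 64 at 1 h, and 23.8 and 14.4 at 24 h. All early arrays were above 24 h, but the 2 at 0.5 h differed widely, and without the second 24 h array the adjusted p went from 0.0109 to 0.128. UGT79B1, which adds a sugar to anthocyanins, differed by 1.31 ± 0.26 (SE; adjusted p = 5.43e-04), and its 0.5 h call was lost without the second 0.5 h array (adjusted p = 0.131). UGT84A4 differed by 0.42 ± 0.13 (SE; adjusted p = 0.0125), with an adjusted p of 0.176 without the first 24 h array. CHIL, a chalcone isomerase-like protein, was the lower member of the flavonoid list, at -0.57 ± 0.18 (SE; adjusted p = 0.0152). Over all 37 measured family 1 glucosyltransferases 12 were higher and 3 lower, against 15.8% and 21.7% of all tested probe sets. Their median was 0.13, and 6 and 2 met the rule for both early times. Of 12 glutathione transferases 3 were higher and 1 lower. GSTU28 had the largest of these rises, with 37.9 and 34.2 at 0.5 h, 120.2 and 145 at 1 h, and 13.5 and 11.2 at 24 h and a difference of 1.88 ± 0.12 (SE; adjusted p = 2.98e-11). GSTU20 differed by 0.73 ± 0.15 (SE; adjusted p = 8.68e-04), but by 0.35 with an adjusted p of 0.0892 without the second 24 h array.

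Most touch and calcium genes and all cold genes that were measured were higher early. Of 5 measured touch and calcium genes 4 were higher and 1, CML41, lower. CML37, another calmodulin-like protein, gave 27.2 and 22.7 at 0.5 h, 112 and 87.9 at 1 h, and 7.59 and 9.7 at 24 h and differed by 1.75 ± 0.16 (SE; adjusted p = 2.68e-08). All 4 measured cold and dehydration genes were higher, with a median of 1.23. COR15A, a cold-regulated protein of chloroplasts, had signals of 42.4 and 49.3 at 0.5 h, 373 and 256 at 1 h, and 22.4 and 20.0 at 24 h. All 4 early arrays were above those of 24 h, but the 1 h arrays were several times higher than the rest. It differed by 2.11 ± 0.24 (SE; adjusted p = 7.13e-07), and its homolog COR15B by 1.61 ± 0.21 (SE; adjusted p = 4.38e-06). At 0.5 h their differences were 0.85 and 0.67, and each of these 2 calls was lost when any 1 of the 4 arrays at 0.5 h and 24 h was left out. The dehydrins COR47 and LTI30 differed by 0.85 ± 0.12 (SE; adjusted p = 6.36e-06) and 0.66 ± 0.15 (SE; adjusted p = 0.00163).

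Of 12 measured expansins 6 were higher and 1, EXPA8, lower, against 15.8% and 21.7% of all tested probe sets. The rule for both early times was met by 2 of the 6 and by EXPA8. EXLA1, an expansin-like protein, had signals of 180.2 and 205 at 0.5 h, 227 and 229.7 at 1 h, and 26.1 and 66.8 at 24 h, with no overlap, and differed by 2.07 ± 0.21 (SE; adjusted p = 1.60e-07). EXLA2 differed by 1.05 ± 0.22 (SE; adjusted p = 7.21e-04), with an adjusted p of 0.0527 without the first 24 h array. Of 6 xyloglucan enzymes XTH18 and XTH19 were higher and EXGT-A3 lower, at -0.49 ± 0.10 (SE; adjusted p = 5.02e-04), or -0.30 (adjusted p = 0.0547) without the second 24 h array. All 14 measured cytochromes P450 carry names of the CYP71B, CYP78 or CYP84 groups. Of these 7 were lower and none higher (1 higher at an unadjusted p under 0.05), against 21.7% and 15.8% of all tested probe sets. Their median was -0.53. At 0.5 h alone 2 were lower and 1 higher, at 1 h 9 were lower, and 2 met the rule for both early times. CYP71B23 had the largest difference, -1.67 ± 0.32 (SE; adjusted p = 5.44e-04), and its signals were 69.8 and 52.2 at 0.5 h, 40.1 and 37.9 at 1 h, and 182 and 171 at 24 h. All 4 early arrays were less bright than both 24 h arrays. Its 0.5 h call was lost without the second 0.5 h array (adjusted p = 0.0661) or the first 24 h array (adjusted p = 0.0532).

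**Figure D3:**
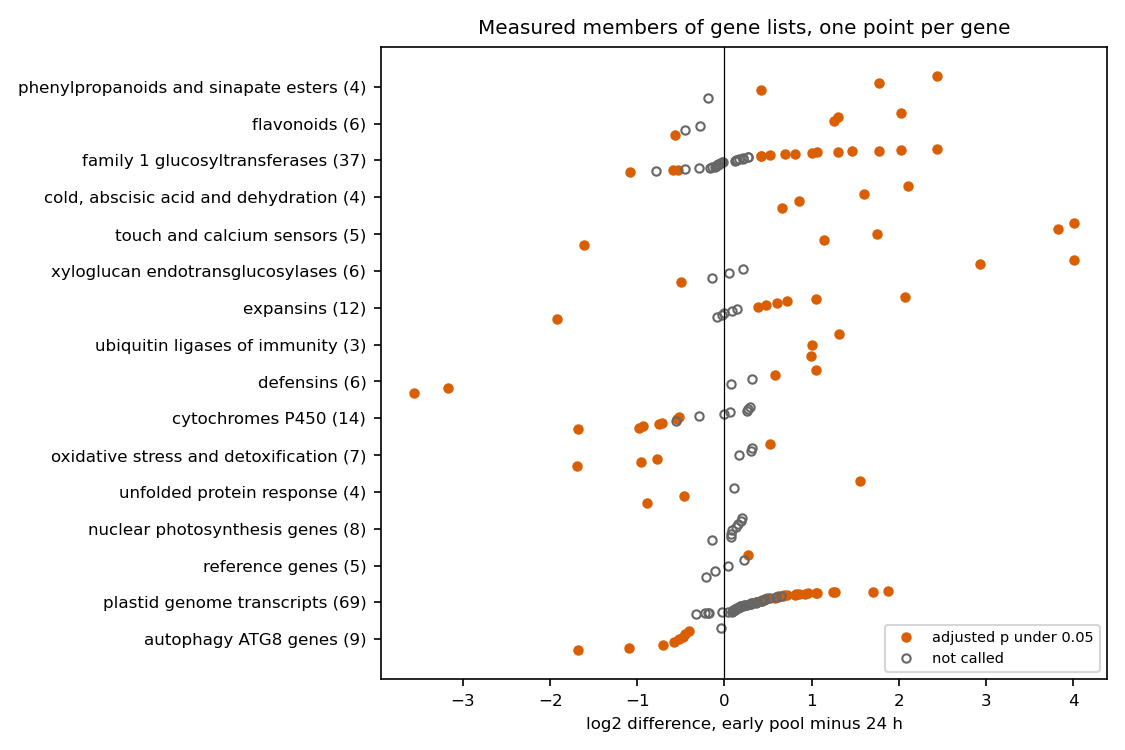
Log2 difference, early pool minus 24 h, of each measured gene of 16 lists, filled where called and open where not, with the number of genes in brackets. All 4 cold genes lie above 0, 7 of 14 cytochromes P450 are called below 0, and none of 8 nuclear photosynthesis genes is called.

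Immune and hormone genes were few on the named array. The ubiquitin ligases PUB22, PUB23 and PUB24, which damp immune responses, were all higher, at 0.99 ± 0.11, 1.31 ± 0.16 and 1.01 ± 0.13. PUB23 had signals of 145 and 89.9 at 0.5 h, 36.1 and 37.3 at 1 h, and 21.4 and 20.5 at 24 h, so its early excess was mostly at 0.5 h. The 1 h calls of PUB22 and PUB23 were lost without the second 1 h array (adjusted p = 0.134 and 0.0693). PUB22 also lost it without the first 24 h array (0.112), and PUB23 without the second (0.0712). A look at all 8 measured U-box genes was added after values were seen. Of these 6 were higher and none lower (0 lower at an unadjusted p under 0.05), against 15.8% and 21.7% of all tested probe sets. PUB19 was at 1.63 ± 0.20 (SE; adjusted p = 9.53e-07) and PUB25 at 1.46 ± 0.13 (SE; adjusted p = 9.47e-09). BIK1, a kinase of immune receptors, differed by 1.06 ± 0.14 (SE; adjusted p = 3.93e-06). OPCL1, of jasmonate synthesis, differed by 0.98 ± 0.10 (SE; adjusted p = 7.84e-08), and THI2.1, a thionin that answers to jasmonate, was at 0.77 ± 0.41 and was not called. EIN3, the main ethylene factor, differed by -0.43 ± 0.08 (SE; adjusted p = 3.00e-04). Of 6 defensins 2 were higher, PDF2.2 (1.05 ± 0.15) and PDF2.3 (0.58 ± 0.09), and 2 lower, PDF1.2 and PDF1.2b.

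Members of the unfolded protein and oxidative lists went both ways. BZIP60, the factor that starts the unfolded protein response, had signals of 498 and 412 at 0.5 h, 428 and 352 at 1 h, and 135 and 138 at 24 h and differed by 1.55 ± 0.09 (SE; adjusted p = 7.34e-12). Every early array was far above both 24 h arrays. ATERDJ3B, a co-chaperone of the endoplasmic reticulum, was lower at -0.89 ± 0.11 (SE; adjusted p = 1.00e-06), as was the calreticulin CRT1b at -0.47 ± 0.11 (SE; adjusted p = 0.00166), with an adjusted p of 0.0533 without the first 24 h array. Of 7 oxidative stress genes 1 was higher and 3 lower. AT2G21640, from that list, had signals of 35.8 and 41 at 0.5 h, 35.9 and 33.1 at 1 h, and 145 and 131 at 24 h, with all early arrays well below 24 h, and differed by -1.69 ± 0.16 (SE; adjusted p = 2.57e-08). Its shoot means were 1193 at 3 h and 1396 at 6 h, so that 24 h was above the early times but far below the hours between. AT2G04050 ran likewise, with means of 1050.4 at 3 h and 27.9 at 24 h and a difference of -0.96 ± 0.14 (SE; adjusted p = 1.66e-05).

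All 9 measured ATG8 genes, whose small ubiquitin-like proteins coat the membranes of autophagy, were looked at after ATG8E was seen among the falls. Of these 8 were lower and none higher (0 higher at an unadjusted p under 0.05), against 21.7% and 15.8% of all tested probe sets. Their median was -0.52, and 5 met the rule for both early times, against 11% of all tested probe sets that were lower by it. ATG8E had signals of 348 and 243 at 0.5 h, 70.9 and 45 at 1 h, and 362 and 537 at 24 h. The 1 h arrays were far below all others, while those at 0.5 h came close to the lower 24 h array. Its difference was -0.58 ± 0.19 at 0.5 h and -2.77 ± 0.19 at 1 h, and the first was lost without the second 0.5 h array (adjusted p = 0.274) or the second 24 h array (adjusted p = 0.307). APG8A differed by -1.09 ± 0.08 (SE; adjusted p = 5.33e-10) and ATG8F by -0.70 ± 0.08 (SE; adjusted p = 4.49e-07).

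The 2 early times were not alike. Between 1 h and 0.5 h, 1502 probe sets were higher at 1 h and 1701 lower, 21.6% of those tested in all. These counts fell to 883 and 1022 without the first 0.5 h array and to 902 and 1069 without the second 1 h array. Of the 1203 probe sets higher at both times, 302 stood higher at 1 h than at 0.5 h and 92 the other way. Of the 1629 lower at both, 265 went lower still by 1 h and 29 came back. Against 24 h, 84 probe sets (0.567%) were called at both times with opposite signs, 64 of them higher at 0.5 h and lower at 1 h. AT5G19120 was one such gene, with signals of 807 and 653 at 0.5 h, 156 and 156 at 1 h, and 278 and 506 at 24 h. Its 0.5 h arrays were above and its 1 h arrays below both 24 h arrays, so its pooled difference of -0.14 hides both. AT3G15450 gave 1835 and 1831 at 0.5 h, 319 and 308 at 1 h, and 811 and 1429.9 at 24 h, in the same order. Its pooled call was lost without the second 24 h array (adjusted p = 0.706) and its 0.5 h call without the first (adjusted p = 0.128).

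PDF1.4, a defensin, had signals of 179 and 108 at 0.5 h, 20.5 and 23.1 at 1 h, and 30.4 and 65.5 at 24 h, with 0.5 h above and 1 h below the 24 h arrays. Its 1 h call was lost without the first 1 h array (adjusted p = 0.0769) or the second 24 h array (adjusted p = 0.342). AT2G20142 was high at 1 h only, with 35.3 and 33.8 at 0.5 h, 329 and 370.2 at 1 h, and 34.6 and 33.2 at 24 h, and AT2G32140 likewise, with 16.6 and 20.0 at 0.5 h, 202 and 228 at 1 h, and 23.4 and 14.8 at 24 h. Their 1 h minus 0.5 h differences were 3.02 ± 0.19 and 3.01 ± 0.18. GI, a clock gene of the afternoon and evening, gave 72.2 and 71.8 at 0.5 h, 214 and 236 at 1 h, and 64.5 and 67.5 at 24 h. It was not called against 24 h at 0.5 h (0.11 ± 0.09) and higher at 1 h (1.63 ± 0.09). AT5G52050, named as the efflux carrier DTX50, was the reverse, at 2.13 ± 0.23 for 0.5 h and 0.24 ± 0.23 for 1 h. Both MATE and clock lists had few measured members, and 2 of 3 midday and evening clock genes, COR27 and AT4G33980, were not called in the pool. At 1 h alone 2 of the 3 were called higher, and at 0.5 h none was called.

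**Figure D4:**
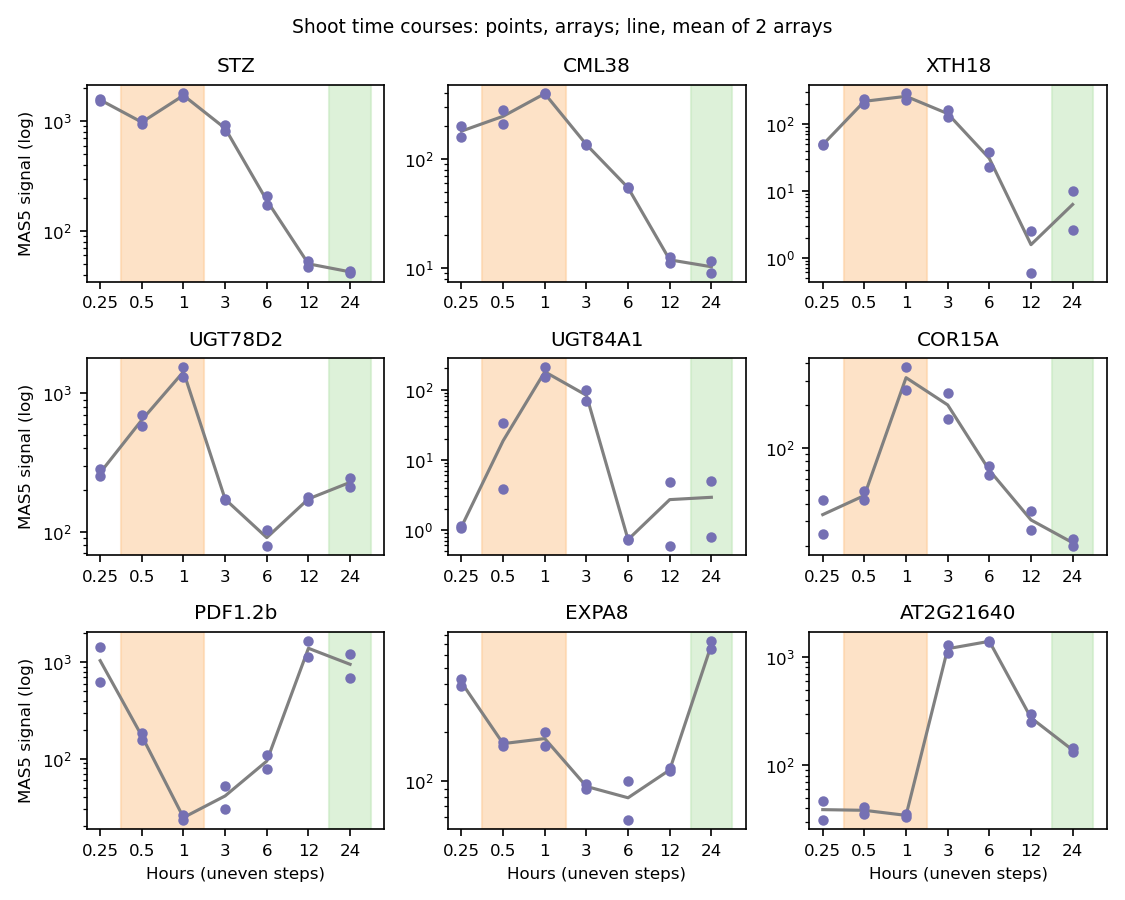
MAS5 signals on a log axis over the 7 shoot times, which are spaced evenly, for 9 genes, with 1 point per array and a line through the mean of 2 arrays. Orange shading marks the early pool and green the 24 h group, and AT2G21640 is seen to stand far above its 24 h mean of 138 at 3 h and 6 h.

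The other shoot times put these differences in place. By rule, the probe sets counted next have all early arrays on 1 side of both 24 h arrays. That largely sets whether a peak or low can fall early or at 24 h. The same counts over all tested probe sets were not made. The 442 probe sets counted here met the rule for both early times and were at least 2-fold higher in the pool. Of these 442, 188 had their highest shoot mean at 1 h, 91 at 0.5 h, 45 at 0.25 h and 105 at 3 h. Their lowest shoot mean was at 12 h for 210 and at 24 h for 161. Of the 213 at least 2-fold lower, 122 had their lowest shoot mean at 1 h, and the highest was at 24 h for 81 and at 6 h for 89. The early low of these genes was therefore set against a 24 h level that was the peak of the series for some and a step down from 6 h for others. PDF1.2b had means of 1041 at 0.25 h and 1399 at 12 h, near or above the 24 h mean of 954. STZ had a mean of 1568 at 0.25 h, and 50.2 at 12 h. EXPA8 was at 407 at 0.25 h and at 79.1 at 6 h, so its 24 h mean of 694 was its highest.

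Roots of the exposed plants, sampled at the same labelled times, showed a smaller or opposite difference for the 24 genes with the largest changes. These genes were chosen for the size of their shoot difference, which by itself favours a smaller value in roots. Over all probe sets 3696, or 25%, differed between shoots and roots in the early pool minus 24 h difference, 1678 of them higher in shoots and 2018 lower. With arrays centred on their median the split was 1881 and 1545. STZ was higher early in roots also, by 1.99 ± 0.12 (adjusted p = 1.67e-10), and the tissue difference was 2.66 ± 0.17. XTH18 was at 0.37 ± 0.21 in roots and was not called there, and its mean root signals were 243 at 0.5 h and 194 at 24 h. AT4G37290 was lower early in roots, by -1.09 ± 0.21, where it was higher in shoots. AT3G28510 and AT2G23910 were higher early in roots, by 2.58 ± 0.31 and 1.56 ± 0.16, where they were lower in shoots. PDF1.2b and PDF1.2 had mean root signals under 15 at all of 0.5 h, 1 h and 24 h, and AT1G76960 under 1.

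Root calls were counted for the 442 probe sets that met the rule with a pooled rise of at least 2-fold. Of them 253 were also called higher early in roots and 22 lower, against 13.5% and 12.1% of all tested probe sets. Of the 213 with falls, 56 were called lower in roots and 26 higher.

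**Figure D5:**
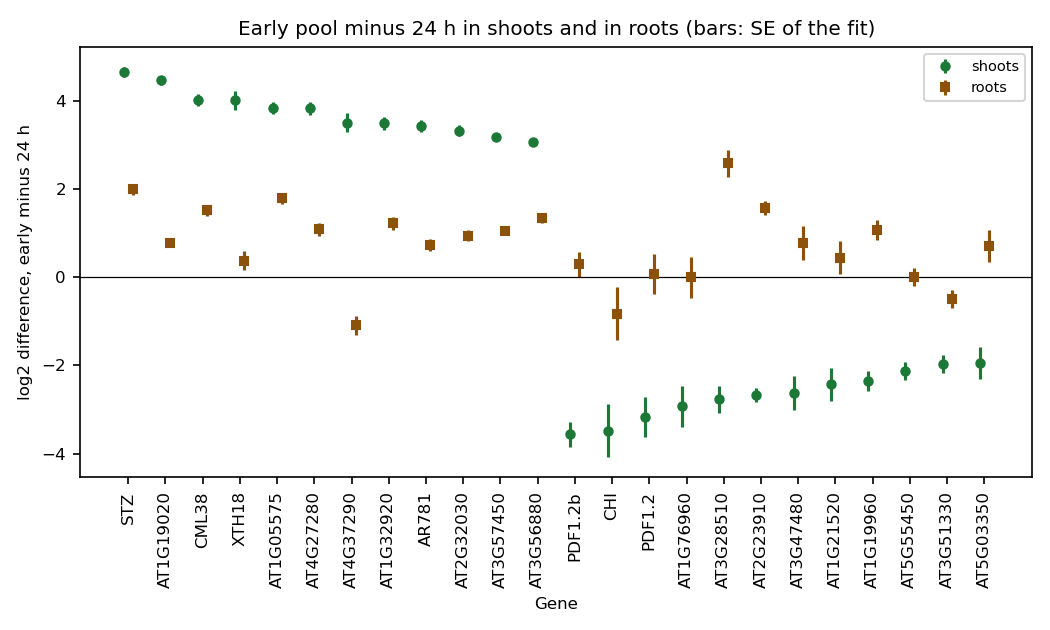
Log2 difference, early minus 24 h, with the SE of the fit, for the 12 largest rises and 12 largest falls of the shoots (green circles) and the same genes in roots (brown squares). Root values lie nearer 0 than shoot values for the rises, with AT4G37290 below 0, and AT3G28510 stands at 2.58 in roots against -2.77 in shoots.

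Genes often used as a steady reference moved little in the pool, though at 1 h alone 1 of 5 was called higher and 1 lower. These were UBC21 at 0.42 and AT4G34270 at -0.29, the latter at -0.13 without the second 1 h array. GAPC2 was at 0.04 ± 0.09, AT4G34270 at -0.21 ± 0.10, AT2G36130 at 0.23 ± 0.11 and AT2G28390 at -0.10 ± 0.09, none of them called in the pool. UBC21 was called at 0.27 ± 0.10 (SE; adjusted p = 0.0441), with adjusted p up to 0.28 when an array was left out. SAG29, a sugar transporter of senescing leaves and the only measured gene of the senescence list, had signals of 146 and 150.1 at 0.5 h, 64.8 and 118 at 1 h, and 30.0 and 29.6 at 24 h and differed by 1.65 ± 0.20 (SE; adjusted p = 1.67e-06). FAMA, the only measured guard cell marker, was at -0.26 ± 0.18 and was not called.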

How the data were processed

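Values were deposited by the authors as 1 intensity per probe set and array, computed with the Affymetrix MAS5 method per the submitters' processing notes. The MAS5 version, its settings and detection calls are not given in the sources used here. Trimmed means (lowest and highest 2% removed) were 100.01 on all arrays, so signals had been scaled to a common level. Precision is limited by the small number of arrays.

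Signals were analysed as log2(signal + 9.58), the constant being the 25th percentile of all signals. Of 22746 probe sets, 14806 were kept, each brighter than the array median on 2 or more arrays. A limma model (version 3.58.1, R 4.3.3, statmod 1.5.0) with 14 group means was fitted to all 28 arrays, with empirical Bayes moderation (trend and robust options, 14 residual degrees of freedom, 7.24 prior). P-values are 2-sided and Benjamini-Hochberg adjusted over 14806 probe sets. An exact permutation test of 4 arrays against 2 has 15 splits and cannot go below 0.0667, so none is given. On simulated data over 14806 probe sets, 67, 67 and 66 were given log2 differences of 0.5, 1 and 2 in the pooled comparison. Of these 62.7%, 95.5% and 100.0% were recovered, and 8 unchanged probe sets were called. Far fewer probe sets changed there than the 37.5% called in the data, so the recovery need not be the same in the data.

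Names come from the annotation tables given. Of 22746, 13513 matched 1 gene, of which 13436 were found by identifier. Where a gene had several probe sets, the one with the highest mean was used. Named were the 12 largest rises and falls where both early times agreed, up to 3 called members with the largest statistic of each of 21 lists and 24 families, genes whose early times differed most, and reference genes. The members and lists were chosen with earlier results of these data known. The 15 largest rises and falls among genes with a description, the added gene families and other list members were chosen after their values were seen. Alternatives tried were other pseudocounts, normalizations, filters, fits and blocks, a 2-fold minimum, and each array left out in turn.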

Additional observations from a re-analysis of the deposited data

Results flagged for a closer look

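On the 4 early arrays, 1 array stood far from the other 3 in 3 of 103 named genes by Dixon's criterion. These were AT3G28510 (gap over range 0.835), where the first 0.5 h array was the higher one, AT4G34270 (0.832), where the second 1 h array was the lower one, and AT2G28390 (0.870), where the first 1 h array was the higher one. All 3 gaps exceed the critical value for 4 samples.

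The early minus 24 h difference was not the same in shoots and roots for all 24 of the genes named for the size of their shoot change, by a test of the difference itself in limma. That choice favours both the sizes and the calls, so 24 of 24 was largely set by it. Over all tested probe sets 25% were called for this difference. For the 12 rises, shoots minus roots was 2.66 for STZ, 3.69 for AT1G19020, 2.49 for CML38, 3.63 for XTH18, 2.04 for AT1G05575, 2.74 for AT4G27280, 4.59 for AT4G37290, 2.27 for AT1G32920, 2.70 for AR781, 2.38 for AT2G32030, 2.12 for AT3G57450 and 1.74 for AT3G56880. For the 12 falls it was -3.85 for PDF1.2b, -2.65 for CHI, -3.25 for PDF1.2, -2.92 for AT1G76960, -5.35 for AT3G28510, -4.24 for AT2G23910, -3.40 for AT3G47480, -2.86 for AT1G21520, -3.43 for AT1G19960, -2.13 for AT5G55450, -1.47 for AT3G51330 and -2.66 for AT5G03350. The call of CHI was lost without either 24 h shoot array, with adjusted p of 0.102 and 0.0706. It was also lost without the second 0.5 h or first 1 h shoot array, without any 1 of the 6 root arrays, and with a pseudocount at the median signal, at up to 0.094. The call of AT1G76960 was lost with no pseudocount, at 0.0653.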

How the results depend on the processing

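In the pooled comparison, of 1943 values of 103 named genes under alternative settings, 1898 kept their direction and side of the threshold, 38 lost the call, 7 gained it and 0 changed sign, and 82 genes had no change there. The other comparisons lost more: 67 of 1556 values of the called named genes at 0.5 h (18 of 87 genes), 48 of 1700 at 1 h (13 of 95), 94 of 1057 between the early times (21 of 59) and 102 of 1686 between tissues (19 of 77). Requiring at least 2-fold left 717 probe sets in the pool (482 higher, 235 lower), 662 at 0.5 h (477, 185), 1067 at 1 h (610, 457), 655 where both agreed (442, 213), 452 between the early times (174, 278) and 871 between tissues (500, 371). Fitting only the 6 arrays gave 2429 at 0.5 h (1214 lower), 1706 for agreement at both times (859 lower), and 1634 between the early times (710, 924). With shoots fitted alone 992 were higher at 1 h than at 0.5 h. Both fits have fewer arrays to estimate the spread. In the ranges given next, only arrays that enter the comparison were left out. Leaving out 1 array gave 3998 to 5386 in the pool (1737 to 2365 higher, 2261 to 3119 lower), 2846 to 3543 at 0.5 h (1335 to 1605, 1511 to 1938), 4374 to 5116 at 1 h (1868 to 2204, 2506 to 2912), 2069 to 2548 where both agreed (948 to 1118, 1121 to 1430), 1905 to 3075 between the early times (883 to 1558, 1022 to 1612) and 2596 to 3827 between tissues (1235 to 1749, 1361 to 2078). The 1511 came without the first 24 h array. The numbers of the replicates did not pair the samples: deviations of same-numbered arrays correlated at 0.01, -0.22 and -0.11. With the replicate number as a block the counts were 5476 in the pool, 4112, 5817, 2785, 3149 and 3597. The constant added before the log shrinks the differences of dim genes.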

Other observations

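More transcripts of the plastid genome were higher than lower early, in a look added after petD and psbA were seen among the large rises. Of 69 measured plastid genes 26 were higher and none lower, against 15.8% and 21.7% of all probe sets tested with limma. At an unadjusted p under 0.05 the counts were 37 higher and 0 lower. The median was 0.36, and 16 met the rule for both early times, against 8.13% of all tested probe sets that were higher by it. petD, a subunit of the cytochrome complex between the photosystems, differed by 1.87 ± 0.28 (SE; adjusted p = 4.18e-05), and psbA, the core protein of photosystem II, by 1.71 ± 0.27 (SE; adjusted p = 9.18e-05). In roots the same differences were 0.41 and 1.37. Over the 69 genes the shoot differences ran from -0.33 to 1.87. Not among the 26 were petB, of the complex of petD, at 0.10 ± 0.10, and psbH, of photosystem II, at 0.15 ± 0.10. None of the 8 measured nuclear photosynthesis genes was called.

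The 5 measured methionine sulfoxide reductases, which repair oxidised methionine, went both ways. MSRB6 had signals of 205 and 163 at 0.5 h, 290.1 and 228 at 1 h, and 497 and 582 at 24 h and differed by -1.27 ± 0.20 (SE; adjusted p = 6.24e-05), and MSRB9 differed by -1.23 ± 0.14 (SE; adjusted p = 1.01e-06). MSRB5 was higher in the pool, at 0.50 ± 0.16 (SE; adjusted p = 0.0169), but with 1.08 at 0.5 h and -0.08 at 1 h. Of 5 measured bHLH factors 1 was higher, bHLH34 at 0.91 ± 0.10 (SE; adjusted p = 3.96e-07), and 1 lower, bHLH121 at -0.65 ± 0.09 (SE; adjusted p = 9.78e-06). Of 6 WRKY factors 2 were higher, WRKY53 and WRKY22, and 2 lower, ZAP1 at -0.58 ± 0.11 (SE; adjusted p = 3.19e-04) and WRKY47 at -0.70 ± 0.15 (SE; adjusted p = 7.26e-04). WRKY22 differed by 0.71 ± 0.13 (SE; adjusted p = 1.17e-04), and its 1 h call was lost without the first 24 h array (adjusted p = 0.185) or either 1 h array. OSM34, an osmotin-like defence protein, was high at 0.5 h only, with 153 and 45.6 at 0.5 h, 6.54 and 2.83 at 1 h, and 2.71 and 8.67 at 24 h. The 2 arrays at 0.5 h were far apart, and the pooled call was lost without the first 24 h array (adjusted p = 0.104).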
